A study of Mus musculus with 24 samples.

Results

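The genes described here make and load the peptides that MHC class I molecules show at the cell surface: Tap1, Tap2, Tapbp, Psmb8, Psmb9, Psmb10, B2m, H2-K1, H2-D1 and Nlrc5. Their chromatin was followed in ATAC-seq data, which read out the accessible DNA that a transposase can reach. A consensus peak, a region called open in at least one library and counted in all of them, was taken when it overlapped the body of a member gene or the 10 kb on either side (mm10, GENCODE vM21) and was given to the nearest member. This gave 48 of the 184158 consensus peaks, between 137 and 3612 bp long. Nlrc5 held 19, H2-D1 7, B2m 5, Tapbp and H2-K1 4 each, Tap2 3, and Psmb10 and Psmb9 2 each. Psmb8 held 1, and 1 more lay over the shared start of Tap1 and Psmb9, which are read away from each other and cannot be separated by this peak.

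Libraries came from mouse bone marrow-derived macrophages (BMDMs) in 4 groups of 6, namely WT and AhR-KO, each unstimulated or with LPS. The aryl hydrocarbon receptor (AhR) is a transcription factor switched on by small ligands, and AhR-KO mice (B6.129-Ahr tm1Bra/J) lack it in every cell, so that their marrow also developed without it. Marrow of both genotypes was grown with GM-CSF (10 ng/ml), TGF-β (2 ng/ml) and 10% serum to resemble alveolar macrophages. LPS, the bacterial lipopolysaccharide, was added for 24 h at 97 EU/ml from day 6, and the calcium ionophore A23187 followed at 5 µM for 10 min; the labels carry this treatment text on all libraries, unstimulated ones included. The mice were adults of both sexes, and neither age nor sex is given per library. The comparisons asked how loss of AhR and stimulation with LPS each altered accessibility at these genes.

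MHC class I molecules consist of a heavy chain, such as H2-K or H2-D in the mouse, the light chain β2-microglobulin and a short peptide cut from proteins of the cell. The immunoproteasome, whose inducible subunits are encoded by Psmb8, Psmb9 and Psmb10, cuts the peptides. The transporter TAP1-TAP2 carries them into the endoplasmic reticulum, where tapasin (Tapbp) helps to load them. NLRC5 drives transcription of many of these genes, most of which also respond to interferons, and macrophages use the pathway to show infection to CD8+ T cells.

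Summed over all consensus peaks, WT unstimulated libraries held 8536838 to 23108428 counts and AhR-KO unstimulated libraries 18935575 to 25728944. With LPS, WT libraries held 25090013 to 34598345 and AhR-KO libraries 22365774 to 28480454 counts. WT unstimulated replicate 5 had the lowest total. The peak over the start of Ahr held 18.99 to 24.57 CPM in the WT and 11.55 to 16.79 CPM in the AhR-KO libraries, which did not overlap (log2 fold change -0.78 ± 0.08, adjusted p = 2.98e-10 without and -0.45 ± 0.07, adjusted p = 4.52e-06 with LPS); the sources used here do not say whether the altered part of the gene lies in it. CPM values are counts scaled to the library total after TMM normalization. A start-site peak was found for 11 of 12 macrophage markers (not for Csf1r) and for 9 of 33 markers in 8 lists of other cell types, with none for B cells, erythroid or stromal cells. Between genotypes, the DARs (defined below) among these were Itgax (higher) and Flt3, Cxcr2 and Kit (lower in AhR-KO) without LPS, and Flt3, Ccr7 and Kit (lower) and Cd2 (higher) with LPS; the epithelial list, with 1 peak at Cdh1, had none. In bulk cultures a smaller share of cells with a site open and less opening per cell cannot be told apart.

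Sequences are shown where the results below turn on them, 5′ to 3′ on the strand named. The promoters of H2-K1 (chr17:34000348-34000597, minus strand), H2-D1 (chr17:35262844-35263093, plus strand) and B2m (chr2:122147437-122147686, plus strand) are the 250 bases before the RefSeq start (GRCm38.p6). Capitals mark a κB-like motif (GGGA, any 4 bases, CC; overlapping sites in each), the interferon-stimulated response element (ISRE; GAAA, any 2 bases, GAAA), the cyclic AMP response half-site TGACG and CCAAT, each on either strand. The 3 were chosen because they encode the heavy and light chains of the displayed molecule.
H2-K1 promoter: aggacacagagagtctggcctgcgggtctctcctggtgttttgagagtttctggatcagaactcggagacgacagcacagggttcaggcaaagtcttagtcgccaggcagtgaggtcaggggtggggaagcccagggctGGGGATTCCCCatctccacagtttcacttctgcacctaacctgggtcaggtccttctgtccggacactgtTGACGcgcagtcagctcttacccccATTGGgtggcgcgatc
H2-D1 promoter: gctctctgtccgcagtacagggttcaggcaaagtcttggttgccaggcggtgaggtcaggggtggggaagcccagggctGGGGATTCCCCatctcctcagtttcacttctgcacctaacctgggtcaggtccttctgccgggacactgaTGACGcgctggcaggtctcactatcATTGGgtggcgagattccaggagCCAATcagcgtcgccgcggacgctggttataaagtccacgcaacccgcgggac
B2m promoter: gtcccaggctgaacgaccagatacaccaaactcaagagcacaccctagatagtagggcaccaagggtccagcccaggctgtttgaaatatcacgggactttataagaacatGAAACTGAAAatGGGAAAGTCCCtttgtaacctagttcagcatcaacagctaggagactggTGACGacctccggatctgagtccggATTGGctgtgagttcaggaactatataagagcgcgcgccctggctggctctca

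The H2-K1 and H2-D1 promoters, read 50 bases past the start, were identical at 206 of 228 positions of a local alignment (90.4%); the RefSeq start of H2-D1 lies downstream of the GENCODE one. The sources used here do not say how reads fitting both genes equally well were counted, so the values of these paralogs are uncertain to that extent. Of the 8 members with a promoter entry (Tap2 and Nlrc5 had none), 5 held TGACG, against 21.02% of 27025 RefSeq promoters scanned over the same 300 bases, and 6 held CCAAT, against 37.9%. The κB-like motif was found in 3 of them (H2-K1, H2-D1 and B2m), against 20.5%. The ISRE in its exact letters was found in 1 of 8, B2m, against 3.49%. Sites that depart from these letters were not scanned, so the other promoters were not shown to lack such an element. The AhR core motif GCGTG was present in 6 of 8, against 32.5%.

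The 300 central bases of the 3 peaks away from start sites with the largest fold changes, for genotype or for LPS, are given on the plus strand. These are a peak downstream of Psmb9 (chr17:34174102-34174401), a peak downstream of Tap2 (chr17:34218803-34219102) and a peak in an intron of Nlrc5 (chr8:94454294-94454593). Capitals mark the ISRE, the STAT motif TTCNNNGAA, of which 1 site overlaps the ISRE by 3 bases in both Tap2 and Nlrc5, and TGACG, on either strand.
Psmb9 downstream peak: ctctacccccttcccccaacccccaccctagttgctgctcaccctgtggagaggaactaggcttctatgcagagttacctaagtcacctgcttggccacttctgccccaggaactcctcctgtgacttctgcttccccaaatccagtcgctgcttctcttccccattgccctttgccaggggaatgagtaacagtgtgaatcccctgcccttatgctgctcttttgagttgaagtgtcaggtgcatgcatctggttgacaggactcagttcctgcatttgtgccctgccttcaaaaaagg
Tap2 downstream peak: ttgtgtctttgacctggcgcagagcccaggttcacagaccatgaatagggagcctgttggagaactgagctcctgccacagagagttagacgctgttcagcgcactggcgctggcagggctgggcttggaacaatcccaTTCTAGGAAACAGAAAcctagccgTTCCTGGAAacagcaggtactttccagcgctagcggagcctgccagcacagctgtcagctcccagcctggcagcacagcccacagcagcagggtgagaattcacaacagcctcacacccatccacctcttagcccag
Nlrc5 intronic peak: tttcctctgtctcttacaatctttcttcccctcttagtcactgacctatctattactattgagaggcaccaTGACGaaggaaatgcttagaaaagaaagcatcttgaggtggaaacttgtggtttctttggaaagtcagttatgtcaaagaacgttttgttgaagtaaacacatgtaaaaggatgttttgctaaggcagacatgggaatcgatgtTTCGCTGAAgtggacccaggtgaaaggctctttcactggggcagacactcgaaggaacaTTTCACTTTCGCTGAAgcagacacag

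The Psmb9 sequence held none of these motifs, nor GCGTG or the κB-like motif. An ISRE lay in the central 300 bases of 5 of the 48 member peaks (10.4%), against 4.59% of 184060 consensus peaks. The 5 were the start-site and downstream peaks of Tap2, the start-site peak of B2m, and an intronic and an exonic peak of Nlrc5. GCGTG was found in 8 of 48, against 16.02% of all peaks, and the κB-like motif in 12 of 48, against 15.2%. Such matches describe the letters and not the binding of a factor.

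Without LPS, member peaks were mostly more open in AhR-KO than in WT BMDMs, but by small amounts. The median log2 fold change was 0.32 over the members and -0.02 over all 174193 tested peaks. Differentially accessible regions (DARs) passed both an adjusted p of 0.05 and a fold change of 1.5; by this definition 6 member peaks were higher and 3 lower in AhR-KO, or 18.8% of 48, against 22.6% of all tested peaks (9.95% higher and 12.6% lower). A further 20 member peaks, all of them higher in AhR-KO, passed on the adjusted p but not on the fold; with no fold threshold, 26 members were higher and 3 lower, against 18.9% and 21.2% of all tested peaks. The count moved with the scaling: with RLE size factors or with DESeq2, 11 were higher and 3 lower DARs, and with RLE the shares of all tested peaks were 11.9% and 11.1%. In 14 peaks the 6 AhR-KO libraries all lay above the 6 WT libraries and in 2 all below, against 9.78% and 11.3% of all tested peaks. All 48 member peaks passed the filter on low counts. Of the 12 macrophage markers, 11 had a start-site peak; 1 of these, Itgax, was a DAR, higher in AhR-KO, and the 11 had a median of 0.31 and a summed level of 317.8 to 419.6 CPM in AhR-KO against 280.6 to 314.1 CPM in WT, and their part in the members' values was not tested.

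With LPS, the same contrast gave 5 higher and 1 lower DAR among the members (12.5%), against 26.5% of all tested peaks (13.4% higher and 13.1% lower). Of the 5 higher ones, all but the Nlrc5 intronic peak printed above lay in regions called in AhR-KO libraries alone. Such regions entered the count table only through the genotype in which they were then higher, so the count is not independent of that choice. The median log2 fold change was 0.13, against 0.02 over all tested peaks. The libraries did not overlap in 7 peaks that were higher and 1 that was lower in AhR-KO, against 10.6% and 8.96% of all. One DAR, downstream of Psmb9, was found in both genotype comparisons, that is in 1 of 9 and 1 of 6, and was lower in both. The same overlap over all tested peaks was not counted. None of the 9 start-site peaks was a genotype DAR by edgeR, and by DESeq2 1 was without LPS (Tapbp) and 0 with LPS; at an unadjusted p under 0.05 there were 7 and 4. With no fold threshold, 6 passed without LPS and 3 with LPS, all of them higher in AhR-KO. Over all 48 peaks with LPS, 17 were then higher and 4 lower, against 23.3% and 21.3% of all tested peaks. The plot of genotype effects at start sites shows all 9.

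**Figure D1:**
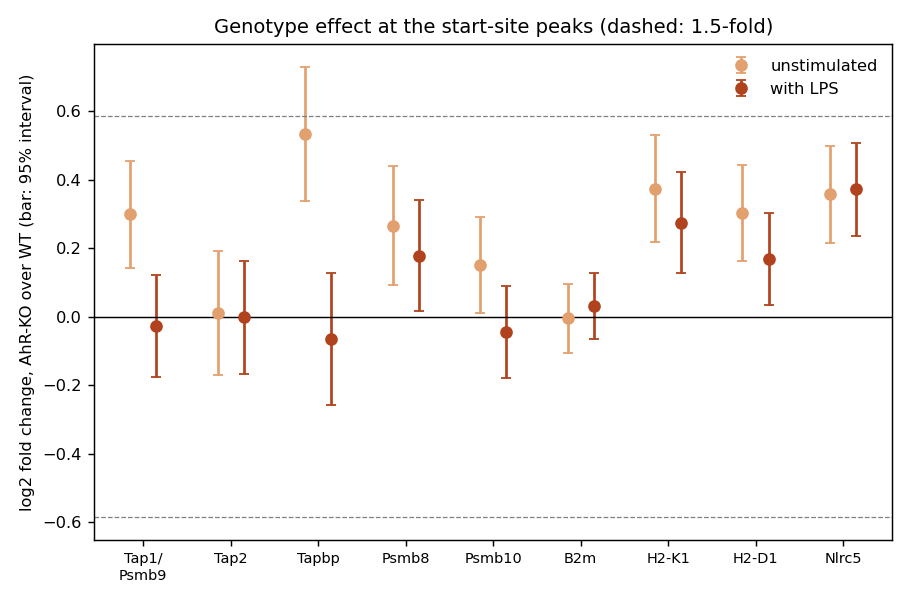
Log2 fold change of AhR-KO over WT at the 9 start-site peaks, with bars of the 95% interval, in unstimulated (light) and LPS-stimulated BMDMs (dark); dashed lines mark 1.5-fold. Values ran from 0.00 (B2m) to 0.53 (Tapbp) without LPS and from -0.06 (Tapbp) to 0.37 (Nlrc5) with it, all inside the dashed lines.

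With LPS, higher DARs made up 35.4% of the members in WT and 29.2% in AhR-KO, the latter near the share of all tested peaks. In both genotypes these include regions called in LPS libraries alone. They are the peaks from 33994726, 34218535, 35268318, 94453955, 94469415, 94477954 and 94493286. Such regions entered the count table only through LPS libraries, so these counts are not independent of that choice. How many of all tested peaks were of this kind was not counted. In WT, 17 peaks were higher and 2 lower with LPS (39.6%), against 47.0% of all tested peaks (25.4% higher and 21.6% lower), and the median log2 fold change was 0.34 against -0.01. In AhR-KO, 14 were higher and 2 lower (33.3%), against 48.8% (27.3% higher and 21.5% lower), with a median of 0.17 against 0.05; upper-quartile scaling gave 13 higher and 4 lower, with 27 of 48 values above 0 in place of 33, and 3 of 9 in place of 7 at start sites. In WT, 17 peaks lay higher without overlap and 1 lower, against 20.5% and 18.3% of all; in AhR-KO 14 lay higher and 2 lower, against 24.9% and 20.6%. With no fold threshold, 32 were higher and 3 lower in WT, against 31.8% and 32.1%, and 22 and 5 in AhR-KO, against 35.1% and 31.1%. The genotypes shared 13 of these DARs, all with the same direction and 12 of them higher, which is 68.4% of the WT and 81.25% of the AhR-KO DARs. The sharing over all tested peaks was not counted, so these shares cannot be set against the series. Among start-site peaks, 1 of 9 was a DAR in WT and 2 in AhR-KO, and among the other 39 there were 18 and 14.

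The interaction, the genotype effect with LPS minus that without, gave 1 DAR among the members (2.08%), at the start of Tapbp, against 10.4% of all tested peaks (5.83% positive and 4.58% negative). A further 5 peaks passed on the adjusted p alone, all negative, which makes 0 positive and 6 negative against 7.99% and 7.35% of all; 32 of the 48 values were below 0 (at start sites 7 of 9, and 9 of 9 with RLE or upper-quartile factors), with a median of -0.16 against 0.04 over all tested peaks. Thus for most members the LPS effect was not shown to differ between the genotypes. The next paragraphs give the members by role.

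**Figure D2:**
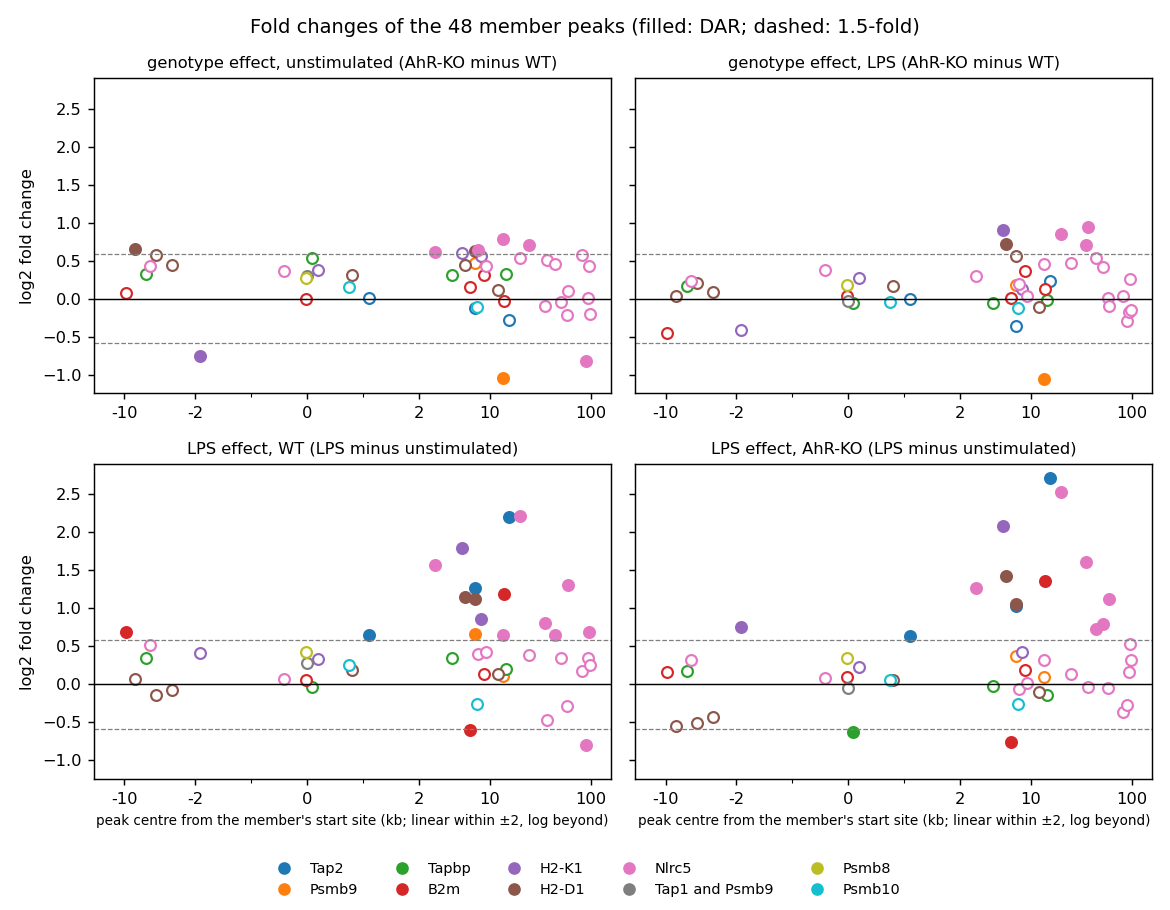
Log2 fold change of the 48 member peaks in the 4 pairwise comparisons against the distance of the peak centre from the start of its member gene (kb, linear within 2 kb and logarithmic beyond); filled points are DARs and dashed lines mark 1.5-fold. Start-site peaks lie within 1.5-fold in the genotype comparisons, and with LPS those of Tap2 (0.65 in WT and 0.64 in AhR-KO) and Tapbp (-0.63 in AhR-KO) lie outside it. The largest LPS effects, 2.21 in WT and 2.71 in AhR-KO, lie 20087 bp and 15425 bp beyond the starts of Nlrc5 and Tap2. Both lie in regions called in LPS libraries alone.

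Tap2 encodes one of the 2 chains of the peptide transporter, and all 3 of its peaks rose with LPS in both genotypes. Its start-site peak (chr17:34203015-34206252) held 10.1 to 15.7 CPM (median 13.04) in WT unstimulated and 15.8 to 24.8 CPM (median 20.5) in WT LPS libraries. In AhR-KO the same peak went from 11.7 to 15.2 CPM (median 13.3) to 17.9 to 22.4 CPM (median 20.5). All LPS libraries lay above all unstimulated ones in each genotype, with a log2 fold change of 0.65 ± 0.09, adjusted p = 6.12e-08 in WT and 0.64 ± 0.09, adjusted p = 6.02e-08 in AhR-KO. It was the only start-site peak among the members that passed 1.5-fold upward with LPS. With upper-quartile scaling the AhR-KO value was 0.54, short of 1.5-fold, and with a minimum of 1 CPM in 6 libraries it was 0.56. Genotype differences at this site were 0.01 ± 0.09, adjusted p = 0.935 without LPS (95% interval -0.17 to 0.19) and 0.00 ± 0.08, adjusted p = 0.990 with LPS (-0.17 to 0.16).

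The intronic Tap2 peak (chr17:34210391-34211005) and the downstream one (chr17:34218535-34219370), whose central bases are printed above, responded more. In the intronic peak, WT libraries went from 3.49 to 4.85 CPM (median 3.82) to 8.01 to 11.4 CPM (median 9.33), a log2 fold change of 1.27 ± 0.13, adjusted p = 1.07e-10. AhR-KO libraries went from 2.60 to 5.41 CPM (median 3.48) to 6.33 to 9.08 CPM (median 7.33) (1.04 ± 0.13, adjusted p = 8.66e-09). Again no LPS library overlapped an unstimulated one, and with LPS the AhR-KO level was lower by less than 1.5-fold (-0.36 ± 0.12, adjusted p = 0.0124). The downstream peak was nearly closed at rest, at 0.644 to 0.959 CPM (median 0.812) in WT and 0.381 to 1.01 CPM (median 0.672) in AhR-KO. It held 2.04 to 5.53 CPM (median 3.95) in WT LPS and 2.81 to 5.31 CPM (median 4.61) in AhR-KO LPS libraries. These are log2 fold changes of 2.20 ± 0.24, adjusted p = 1.19e-09 and 2.71 ± 0.23, adjusted p = 5.56e-12, the latter the largest of any member peak. A peak was called there in 0 of 12 unstimulated and in 12 of 12 LPS libraries, each library taken alone. The region thus entered the count table only through the LPS libraries, in which it was then higher. The genotype difference with LPS was 0.23 ± 0.18, adjusted p = 0.306, not a DAR.

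Tap1 encodes the other chain of the transporter, and its start is shared with Psmb9. The peak over both starts (chr17:34186802-34188311) held 16.2 to 22.9 CPM (median 19.3) in WT unstimulated and 20.9 to 26.7 CPM (median 23.8) in AhR-KO unstimulated libraries. It held 19.1 to 26.2 CPM (median 23.6) in WT LPS and 20.3 to 24.8 CPM (median 23.1) in AhR-KO LPS libraries. The groups overlapped in all comparisons. Without LPS it was higher in AhR-KO by less than 1.5-fold (0.30 ± 0.08, adjusted p = 0.00256), and the WT effect of LPS was of the same order (0.28 ± 0.08, adjusted p = 0.00228), whereas the AhR-KO effect of LPS was -0.05 ± 0.08, adjusted p = 0.604. The interaction was -0.33 ± 0.11, adjusted p = 0.0391.

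Tapbp encodes tapasin, which holds empty class I molecules next to TAP. Its start-site peak (chr17:33915741-33916223) also covers the start of Zbtb22, and the peaks on either side cover the starts of Daxx and Rgl2, so that accessibility there cannot be assigned to 1 gene. At the Tapbp start, WT unstimulated libraries held 20.5 to 25.03 CPM (median 22.5) and AhR-KO unstimulated libraries 25.7 to 42.8 CPM (median 32.2). With LPS the peak held 20.1 to 26 CPM (median 22.1) in WT and 18.1 to 25.5 CPM (median 20.8) in AhR-KO. The unstimulated AhR-KO libraries stood above all others except for an overlap with WT LPS at the lower end. LPS lowered the peak in AhR-KO (-0.63 ± 0.10, adjusted p = 1.72e-06) and left it near its resting level in WT (-0.03 ± 0.10, adjusted p = 0.815). The genotype difference was 0.53 ± 0.10, adjusted p = 7.34e-05 without LPS, short of 1.5-fold, and -0.06 ± 0.10, adjusted p = 0.632 with LPS. With RLE size factors or DESeq2 the first of these was 0.60 and a DAR.

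The interaction at the Tapbp start was -0.60 ± 0.14, adjusted p = 0.00407, just past 1.5-fold. It fell short of that fold in 6 of the 24 fits that left out 1 library, at -0.56 without AhR-KO unstimulated replicate 1, -0.51 without replicate 2 of that group and -0.58 without WT unstimulated replicate 6. The other 3 values were -0.55 without WT LPS replicate 2, -0.57 when AhR-KO LPS replicate 3 was left out and -0.56 when replicate 4 was. With the replicate number as a block over all libraries the interaction was -0.58, also short of the fold. The LPS effect in AhR-KO fell short without AhR-KO unstimulated replicate 2 (-0.54) or AhR-KO LPS replicate 4 (-0.58). The other 3 Tapbp peaks had no DAR in any comparison, and each was higher in unstimulated AhR-KO by less than 1.5-fold (log2 fold changes of 0.31 to 0.33). In the exonic peak (chr17:33919207-33921001), the interaction was -0.37 ± 0.12, adjusted p = 0.0288.

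**Figure D3:**
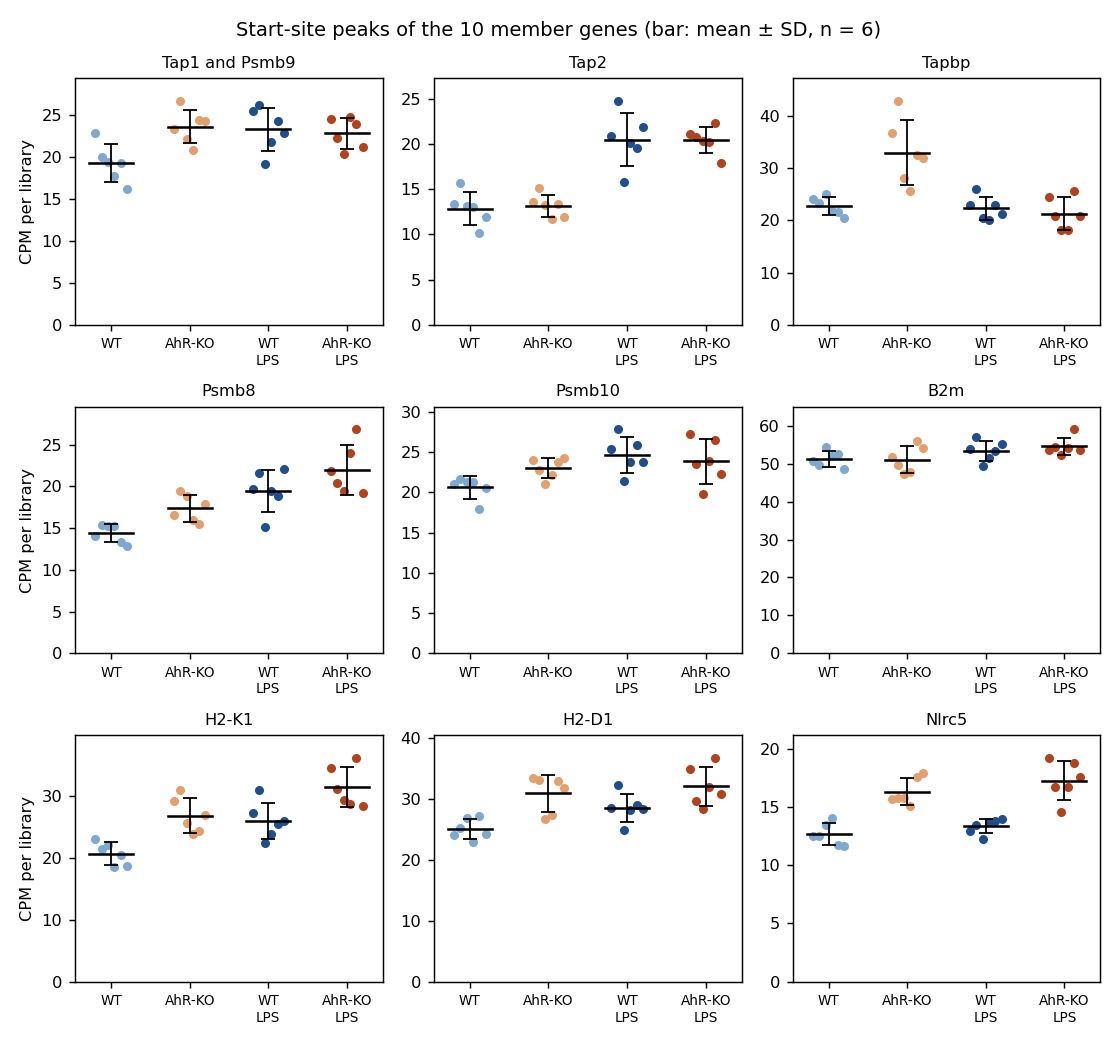
CPM of the 9 start-site peaks in each library by group, with mean ± SD (n = 6). Tap2 rises from 10.1 to 15.7 CPM without LPS to 15.8 CPM and above with it in WT, Tapbp is highest in unstimulated AhR-KO (25.7 to 42.8 CPM), and B2m stays between 47.1 and 59.1 CPM.

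The immunoproteasome genes showed small effects at their starts. Psmb8 encodes the chymotrypsin-like subunit β5i, and its peak (chr17:34196579-34198817), which also overlaps the end of Tap1, held 12.9 to 15.3 CPM (median 14.6) in WT unstimulated and 15.1 to 22.1 CPM (median 19.5) in WT LPS libraries. In AhR-KO it held 15.5 to 19.5 CPM (median 17.2) without and 19.3 to 26.8 CPM (median 21.1) with LPS. All WT unstimulated libraries lay under the AhR-KO unstimulated ones, and the lowest WT LPS library, at 15.1 CPM, lay within the WT unstimulated range. The LPS effect was 0.43 ± 0.09, adjusted p = 5.42e-05 in WT and 0.34 ± 0.08, adjusted p = 6.00e-04 in AhR-KO, both short of 1.5-fold. Psmb10 encodes β2i, and its start-site peak (chr8:105936868-105938538) held 17.9 to 21.7 CPM (median 21.1) in WT unstimulated, 21.03 to 24.3 CPM (median 23.3) in AhR-KO unstimulated, 21.4 to 27.9 CPM (median 24.6) in WT LPS and 19.8 to 27.3 CPM (median 23.7) in AhR-KO LPS libraries. The groups overlapped throughout, and the LPS effect in WT, 0.25 ± 0.07, adjusted p = 0.00237, was the only one with an adjusted p under 0.05. The downstream Psmb10 peak, which lies within Pskh1, held 1.97 to 2.53 CPM on average in the 4 groups, with no DAR.

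Psmb9 encodes β1i, and the peak furthest downstream of it (chr17:34173864-34174639) had the largest genotype difference of all 48 in either treatment, and little response to LPS. WT unstimulated libraries held 3.14 to 6.80 CPM (median 4.50) and AhR-KO unstimulated libraries 1.17 to 2.74 CPM (median 2.63). With LPS the WT libraries held 3.19 to 6.71 CPM (median 5.20) and the AhR-KO libraries 1.95 to 3.16 CPM (median 2.55). Every AhR-KO library lay below every WT library of the same treatment. AhR-KO was lower by a log2 fold change of -1.04 ± 0.19, adjusted p = 3.86e-05 without LPS and -1.06 ± 0.18, adjusted p = 1.03e-05 with LPS, that is at 0.486 and 0.481 of the WT level. Both log2 fold changes stayed between -1.17 and -0.90 when single libraries were left out. The interaction was -0.02 ± 0.26, adjusted p = 0.981, and LPS effects were 0.11 ± 0.17, adjusted p = 0.601 in WT and 0.09 ± 0.19, adjusted p = 0.692 in AhR-KO. The peak was the only member DAR past 2-fold in either genotype comparison. It overlaps no annotated protein-coding gene.

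Markers of other cell types differed in direction. Of 5 dendritic cell markers, 4 had a start-site peak, and Flt3 was lower in AhR-KO without LPS (4.09 ± 0.607 against 9.07 ± 2.12 CPM, mean ± SD, n = 6) and with LPS (4.73 ± 0.486 against 11.6 ± 3.02 CPM). Ccr7 was lower with LPS (2.46 ± 1.03 against 7.05 ± 2.73 CPM), and without LPS held 0.551 ± 0.127 against 0.940 ± 0.365 CPM (adjusted p = 0.109; interaction adjusted p = 0.351). Batf3 and Zbtb46 were instead higher in unstimulated AhR-KO by less than 1.5-fold (log2 fold changes of 0.42, adjusted p = 2.18e-04 and 0.21, adjusted p = 0.0313), and with LPS their values were -0.14, adjusted p = 0.170 and -0.19, adjusted p = 0.0441. Summed over the 4 peaks, the marker level was 41.0 to 50.7 CPM in WT unstimulated, 46.02 to 55.1 CPM in AhR-KO unstimulated, 45.7 to 70.9 CPM in WT LPS and 41.03 to 44.02 CPM in AhR-KO LPS libraries; Xcr1 had no start-site peak. Kit, the 1 of 5 markers of mast cells, basophils and eosinophils with such a peak, was likewise lower in AhR-KO (3.97 to 5.30 against 8.96 to 12.9 CPM without LPS, and 5.47 to 6.998 against 10.97 to 15.9 CPM with LPS). Their part in the difference at the Psmb9 peak was not tested. The other Psmb9 peak, nearer to the gene (chr17:34179961-34181238), was a DAR for LPS in WT (0.66 ± 0.15, adjusted p = 2.59e-04), but not without WT LPS replicate 6 (0.58).

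**Figure D4:**
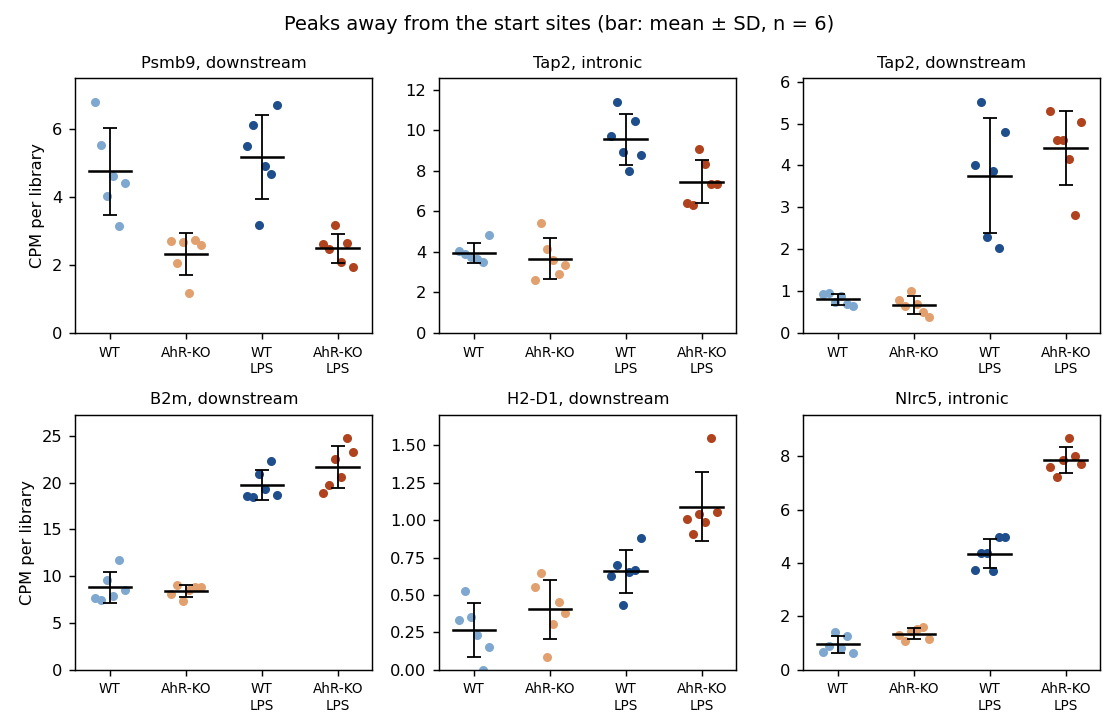
CPM of 6 member peaks away from start sites in each library by group, with mean ± SD (n = 6). The Psmb9 peak separates by genotype, from 1.17 to 3.16 CPM in AhR-KO and from 3.14 to 6.80 CPM in WT, and the other 5 are higher with LPS in both genotypes.

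H2-K1 and H2-D1 encode the classical heavy chains. The start-site peak of H2-K1 (chr17:33998905-34001405), which covers the promoter printed above, held 18.5 to 22.98 CPM (median 20.9) in WT unstimulated and 23.9 to 30.9 CPM (median 26.3) in AhR-KO unstimulated libraries. With LPS it held 22.4 to 30.9 CPM (median 25.7) in WT and 28.4 to 36.2 CPM (median 30.3) in AhR-KO. AhR-KO was higher by less than 1.5-fold without LPS (0.37 ± 0.08, adjusted p = 2.43e-04), where the libraries did not overlap, and with LPS (0.27 ± 0.08, adjusted p = 0.00306), where they did. LPS effects were 0.33 ± 0.08, adjusted p = 4.38e-04 in WT and 0.23 ± 0.08, adjusted p = 0.00856 in AhR-KO. The H2-D1 start-site peak (chr17:35262528-35264523) held 22.9 to 27.2 CPM (median 24.7) and 26.6 to 33.4 CPM (median 32.4) in WT and AhR-KO unstimulated libraries and 24.9 to 32.2 CPM (median 28.4) and 28.3 to 36.7 CPM (median 31.3) in the LPS ones. Its groups overlapped, with genotype differences of 0.30 ± 0.07, adjusted p = 7.34e-04 without LPS and 0.17 ± 0.07, adjusted p = 0.0417 with LPS.

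Peaks next to the heavy chain genes responded to LPS. Downstream of H2-K1 (chr17:33994726-33995298), a weak peak went from 0.0883 to 0.465 CPM (median 0.333) to 0.628 to 1.37 CPM (median 0.935) in WT, a log2 fold change of 1.79 ± 0.32, adjusted p = 9.12e-06. In AhR-KO it went from 0.170 to 0.703 CPM (median 0.510) to 1.08 to 2.44 CPM (median 1.79) (2.08 ± 0.27, adjusted p = 1.34e-08). With LPS it was higher in AhR-KO (0.90 ± 0.22, adjusted p = 0.00113), although single libraries overlapped. A peak was called there in 4 AhR-KO LPS libraries and in no library of the other groups. It entered the count table only through that group, for the LPS as for the genotype comparison. A second downstream peak (chr17:33991751-33992441) was a DAR for LPS in WT but not in AhR-KO (0.86 ± 0.16, adjusted p = 2.40e-05; AhR-KO 0.43 ± 0.15, adjusted p = 0.0133; interaction -0.43 ± 0.22, adjusted p = 0.197). Upstream of H2-K1, a peak of 137 bp (chr17:34002189-34002325) went the other way with genotype: it was lower in unstimulated AhR-KO (0.703 to 1.02 CPM (median 0.865) against 1.16 to 1.78 CPM (median 1.41) in WT; -0.76 ± 0.20, adjusted p = 0.00218) and rose with LPS in AhR-KO (0.76 ± 0.19, adjusted p = 6.14e-04). It was called in 1 WT unstimulated library alone, so that it entered the count table only through the higher group of that genotype comparison.

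Around H2-D1, the downstream peak chr17:35268318-35268572 held 0 to 0.523 CPM (median 0.280) in WT unstimulated and 0.431 to 0.880 CPM (median 0.659) in WT LPS libraries. In AhR-KO it held 0.0878 to 0.649 CPM (median 0.419) and 0.909 to 1.55 CPM (median 1.02). LPS raised it in WT (1.15 ± 0.33, adjusted p = 0.00245) and in AhR-KO (1.43 ± 0.28, adjusted p = 3.02e-05), and with LPS the AhR-KO libraries all lay above the WT libraries (0.72 ± 0.25, adjusted p = 0.0156). The genotype call was lost without AhR-KO LPS replicate 5 (adjusted p = 0.0571), the library with the highest value. This peak was called in 1 AhR-KO LPS library alone, so that it entered the count table only through the group in which it was higher. Its neighbour chr17:35269289-35270382 rose with LPS in WT (1.12 ± 0.16, adjusted p = 1.29e-07) and in AhR-KO (1.06 ± 0.14, adjusted p = 3.43e-08) and was higher in unstimulated AhR-KO (0.62 ± 0.17, adjusted p = 0.00308), the last not without AhR-KO unstimulated replicate 2 (0.57) or 3 (0.56) or WT unstimulated replicate 5 (0.57).

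The 3 peaks upstream of H2-D1 were each higher in AhR-KO at rest and lower with LPS in AhR-KO. In chr17:35259131-35259514, the nearest to the gene, unstimulated libraries held 10.4 to 14 CPM (median 12.4) in AhR-KO and 8.37 to 10.2 CPM (median 8.93) in WT, without overlap and under 1.5-fold (0.44 ± 0.09, adjusted p = 2.03e-04). Of the 3 only chr17:35254671-35255011 was a DAR for genotype (0.65 ± 0.17, adjusted p = 0.00187; 2.24 to 3.78 CPM (median 2.65) against 1.05 to 2.40 CPM (median 1.73)), and not without AhR-KO unstimulated replicate 1 (0.54), WT unstimulated replicate 3 (0.57) or WT unstimulated replicate 5 (0.58). Its interaction was -0.62 ± 0.23, adjusted p = 0.0626. It passed as a DAR with RLE or upper-quartile factors, DESeq2 and a minimum of 1 CPM in 6 libraries (adjusted p = 0.0267 to 0.0463) and with the replicate number as a block over all libraries (-0.63, adjusted p = 0.0428) or within genotype (-0.65, adjusted p = 0.0177). It also passed without WT unstimulated replicate 2, AhR-KO unstimulated replicate 3 or AhR-KO LPS replicate 5 (adjusted p = 0.0226 to 0.0452). AhR-KO LPS effects of the 3 peaks ran from -0.55 to -0.42, short of 1.5-fold, but the same peak passed under those 4 settings (-0.65 to -0.59) and without AhR-KO unstimulated replicate 3 (-0.61) or AhR-KO LPS replicate 5 (-0.67).

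B2m encodes the light chain, and its start-site peak (chr2:122145862-122149473) differed least between groups among the 9, by at most 0.09 on the log2 scale. It held 48.5 to 54.4 CPM (median 51.3) in WT unstimulated, 47.2 to 56.03 CPM (median 50.8) in AhR-KO unstimulated, 49.4 to 57.1 CPM (median 53.5) in WT LPS and 52.4 to 59.1 CPM (median 53.9) in AhR-KO LPS libraries. All 4 groups overlapped. Differences were 0.00 ± 0.05, adjusted p = 0.955 for genotype without LPS (95% interval -0.10 to 0.09), 0.03 ± 0.05, adjusted p = 0.637 with LPS (-0.07 to 0.13), and 0.06 ± 0.05, adjusted p = 0.320 and 0.09 ± 0.05, adjusted p = 0.0942 for LPS in WT and AhR-KO, so that a change of 1.5-fold lay outside each interval. Per kb of peak the B2m start held 14.2 ± 0.598 CPM in WT unstimulated libraries (mean ± SD, n = 6), above Psmb8 (6.41 ± 0.479) and Tap2 (3.97 ± 0.563). It was level with the Tap1 and Psmb9 start (12.7 ± 1.49), whose libraries overlapped those of B2m. Tapbp stood highest at 46.9 ± 3.56 CPM per kb, in a peak of 483 bp; the width of the consensus peak enters these levels.

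Beyond the 3′ end of B2m, LPS moved 2 neighbouring peaks in opposite directions. The peak chr2:122153797-122154403 held 5.61 to 7.86 CPM (median 7.53) in WT unstimulated and 3.94 to 5.73 CPM (median 4.66) in WT LPS libraries. In AhR-KO it held 6.63 to 8.49 CPM (median 8.26) without and 3.03 to 7.37 CPM (median 4.42) with LPS. It fell in WT (-0.60 ± 0.14, adjusted p = 2.78e-04) and in AhR-KO (-0.75 ± 0.14, adjusted p = 1.06e-05), with overlap of single libraries in each. The WT call was lost, at -0.58 to -0.55, without WT unstimulated replicate 3, 4 or 6 or WT LPS replicate 6. The peak chr2:122160781-122162010 rose in WT from 7.41 to 11.8 CPM (median 8.22) to 18.5 to 22.4 CPM (median 19.03) and in AhR-KO from 7.33 to 9.03 CPM (median 8.67) to 18.9 to 24.8 CPM (median 21.6), without overlap (1.19 ± 0.09, adjusted p = 3.35e-14 and 1.36 ± 0.09, adjusted p = 2.69e-16). It lies 81 bp from the start of Trim69, to which it is nearer than to B2m. Upstream, chr2:122137688-122138533 was a DAR for LPS in WT (0.69 ± 0.12, adjusted p = 6.27e-06; 0.58 without WT LPS replicate 6), but not in AhR-KO (0.16 ± 0.12, adjusted p = 0.242), with an interaction of -0.53 ± 0.17, adjusted p = 0.0322, past the threshold on adjusted p but not on fold. All 5 B2m peaks overlap Patl2, the neighbouring gene. The remaining one, chr2:122155210-122157729, was higher in AhR-KO by less than 1.5-fold without (0.30 ± 0.10, adjusted p = 0.0146) and with LPS (0.36 ± 0.10, adjusted p = 0.00290).

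Nlrc5 encodes the class I transactivator, and 5 of its 19 peaks were genotype DARs without LPS (4 higher and 1 lower in AhR-KO), 3 with LPS (all higher), 8 were LPS DARs in WT (7 higher) and 6 in AhR-KO (all higher). These are 26.3%, 15.8%, 42.1% and 31.6% of its peaks, near or below the shares of all tested peaks (22.6%, 26.5%, 47.0% and 48.8%). The start-site peak (chr8:94433232-94434642) held 11.7 to 14.03 CPM (median 12.5) in WT unstimulated and 15.1 to 17.9 CPM (median 15.8) in AhR-KO unstimulated libraries. With LPS it held 12.3 to 13.95 CPM (median 13.6) in WT and 14.5 to 19.2 CPM (median 17.2) in AhR-KO. It was the only start-site peak at which all AhR-KO libraries lay above all WT libraries in both treatments, though by less than 1.5-fold (0.36 ± 0.07, adjusted p = 1.31e-04 without and 0.37 ± 0.07, adjusted p = 3.22e-05 with LPS). LPS effects there were 0.07 ± 0.07, adjusted p = 0.407 in WT and 0.08 ± 0.07, adjusted p = 0.285 in AhR-KO.

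Within the gene, the intronic peak whose central bases are printed above (chr8:94453955-94454931) was all but closed at rest, at 0.644 to 1.41 CPM (median 0.850) in WT and 1.08 to 1.60 CPM (median 1.37) in AhR-KO unstimulated libraries. With LPS it held 3.71 to 4.99 CPM (median 4.36) in WT and 7.20 to 8.67 CPM (median 7.78) in AhR-KO. The medians of the 4 groups stood in this order, although the unstimulated groups overlapped, and after LPS every AhR-KO library lay above every WT library. The LPS effect was 2.21 ± 0.15, adjusted p = 3.60e-15 in WT and 2.53 ± 0.13, adjusted p = 9.98e-19 in AhR-KO, and AhR-KO exceeded WT with LPS by 0.85 ± 0.11, adjusted p = 1.15e-07, a fold change of 1.80. The interaction was 0.32 ± 0.21, adjusted p = 0.332, so that a larger LPS effect in AhR-KO was not shown. A peak was called there in 0 of 12 unstimulated and in 12 of 12 LPS libraries. This region, too, entered the count table only through LPS libraries, so the calls are no separate evidence of the LPS effect. Like the Tap2 downstream peak, this peak held an ISRE overlapping a TTCNNNGAA motif, but both were printed for their large fold changes. Of the 5 member peaks with a central ISRE, 3 were higher DARs with LPS in each genotype. Of the 43 without one, 14 were in WT and 11 in AhR-KO. A link between the motif and LPS was not tested.

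Nearer the start, the intronic peak chr8:94437028-94437403 rose with LPS in WT, from 1.51 to 2.63 CPM (median 2.19) to 5.42 to 7.95 CPM (median 6.03) (1.58 ± 0.14, adjusted p = 2.94e-12). In AhR-KO it rose from 2.87 to 4.01 CPM (median 3.21) to 6.62 to 9.61 CPM (median 7.87) (1.27 ± 0.13, adjusted p = 4.83e-11). It was also higher in unstimulated AhR-KO than in WT (0.61 ± 0.15, adjusted p = 0.00123), a call lost without WT unstimulated replicate 1 (0.54) or 5 (0.57) or AhR-KO unstimulated replicate 5 (0.55). Unstimulated AhR-KO libraries likewise lay above all WT libraries at chr8:94441733-94442376 (0.64 ± 0.16, adjusted p = 0.00110), chr8:94447367-94448497 (0.78 ± 0.12, adjusted p = 2.11e-06) and chr8:94457941-94460228 (0.71 ± 0.09, adjusted p = 2.39e-08). The last of these held 6.47 to 9.49 CPM (median 8.22) in WT and 11.6 to 15.1 CPM (median 13.2) in AhR-KO, and with LPS 9.38 to 11.5 CPM (median 10.5) and 13.2 to 15.2 CPM (median 14.8), a difference of 0.46 ± 0.08, adjusted p = 1.09e-05 that stayed under 1.5-fold.

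Further along the gene, chr8:94469415-94469842 (0.71 ± 0.19, adjusted p = 0.00225) and chr8:94470835-94471118 (0.94 ± 0.19, adjusted p = 9.57e-05) were higher in AhR-KO with LPS. Both were weak, at 0.367 to 1.17 CPM on average in the 4 groups, and the first lost its call without AhR-KO LPS replicate 5 (0.56). Peaks of single libraries were called there only in AhR-KO, in 3 LPS libraries at the first and in 3 LPS and 1 unstimulated library at the second. The exonic peak chr8:94524614-94524984, near the 3′ end, was lower in unstimulated AhR-KO (0.565 to 1.27 CPM (median 0.974) against 1.19 to 2.11 CPM (median 1.65) in WT; -0.82 ± 0.20, adjusted p = 0.00107) and fell with LPS in WT (-0.80 ± 0.19, adjusted p = 4.30e-04). Of the others, chr8:94493286-94493612 rose with LPS in WT (1.31 ± 0.29, adjusted p = 1.70e-04) and in AhR-KO (1.12 ± 0.28, adjusted p = 6.80e-04), and chr8:94530419-94531487 in WT (0.69 ± 0.10, adjusted p = 1.55e-07). The peak chr8:94485236-94486159 rose in AhR-KO (0.79 ± 0.13, adjusted p = 2.20e-06). In the other genotype these last 2 peaks were not DARs but were also higher with LPS, without overlap. The peak from 94530419 held 7.24 to 10.85 CPM without and 12.97 to 15.21 CPM with LPS in AhR-KO. The peak from 94485236 held 1.09 to 1.79 CPM without and 1.81 to 2.19 CPM with LPS in WT. No Nlrc5 peak (0 of 19) was an interaction DAR. The peak chr8:94477954-94478576 rose in both (0.65 ± 0.27, adjusted p = 0.0327 in WT, 0.73 ± 0.23, adjusted p = 0.00669 in AhR-KO), but its WT call was lost with upper-quartile scaling, with DESeq2, with the replicate number as a block within genotype and at 0.57 to 0.63 without WT unstimulated replicate 2, 3 or 4 or WT LPS replicate 1, 4 or 5. It was called in 1 AhR-KO LPS library alone, and the peak from 94493286 in 2 WT LPS libraries alone. Both thus entered the count table only through LPS libraries. The peak chr8:94532071-94533572, beyond the gene, covers the start of Cpne2 and had no DAR, with means of 15.1 to 20.9 CPM.

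For the rest of the pathway, the start-site peaks of 33 further genes were followed from lists of peptide loading and trimming, proteasome activator and assembly, constitutive proteasome, non-classical heavy chain and regulator genes. Of these 2 were higher and 0 lower in unstimulated AhR-KO than in WT by edgeR, and none was a DAR between genotypes with LPS, with 0 by DESeq2 and 12 at an unadjusted p under 0.05. The share of all tested peaks at that unadjusted p was not counted. LPS gave 5 higher and 1 lower in WT and 3 higher and 2 lower in AhR-KO. The shares called were 6.06% for genotype without LPS and 18.2% and 15.2% for LPS in WT and AhR-KO, below the 22.6%, 47.0% and 48.8% of all tested peaks. For the interaction 5 were called (1 positive and 4 negative), or 15.2%, against 10.4% of all tested peaks, and 4 with DESeq2. These 33 are start-site peaks, whereas all tested peaks include every position, so that the sets are unlike. Among the members, 11.1% of start-site peaks and 46.2% of the others were LPS DARs in WT. Non-classical heavy chains account for 4 of the 5 in WT (H2-T23, H2-Q6, H2-Q7 and H2-M2) and all 3 in AhR-KO (H2-Q6, H2-M3 and H2-M2); these names were picked after their values were seen. The remaining one in WT was Tapbpl, a tapasin relative. The regulator list had no higher DAR, and its lower ones were Ciita, the class II transactivator, in both genotypes, and Irf8, an interferon regulatory factor of myeloid cells, in AhR-KO.

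H2-M2, a non-classical heavy chain, was the clearest of these. Its start-site peak held 4.46 to 6.58 CPM (median 5.91) in WT unstimulated, 9.44 to 15.03 CPM (13.1) in AhR-KO unstimulated, 23.04 to 36.8 CPM (29.9) in WT LPS and 35.1 to 51.2 CPM (43.6) in AhR-KO LPS libraries. AhR-KO was higher without LPS (1.13 ± 0.13, adjusted p = 8.53e-08) and by less than 1.5-fold with LPS (0.54 ± 0.10, adjusted p = 1.26e-04), and the interaction was -0.60 ± 0.17, adjusted p = 0.0168. Psmb6, whose product is the constitutive subunit that Psmb9 replaces, was higher in unstimulated AhR-KO (0.61 ± 0.11, adjusted p = 1.37e-05), with an interaction of -0.68 ± 0.15, adjusted p = 0.00152. H2-M3, which presents formylated peptides, had an interaction of the opposite sign (0.62 ± 0.09, adjusted p = 1.18e-05). Irf8 (-0.62 ± 0.11, adjusted p = 1.58e-04) and Ciita (-0.60 ± 0.21, adjusted p = 0.0442) had negative interactions. Among the 7 class II presentation genes only H2-Aa had one (-0.59 ± 0.15, adjusted p = 0.00547), and none was a genotype DAR by edgeR. DESeq2 gave 1 genotype DAR without LPS and 0 with LPS. At an unadjusted p under 0.05 there were 5 and 3, again without a share of all tested peaks to set beside them. H2-Aa and H2-DMb2 fell with LPS in AhR-KO. The median genotype effect over their start-site peaks was 0.33 without and 0.05 with LPS, beside 0.30 and 0.03 over the 9 class I start-site peaks.

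Peaks called in each library alone were compared as well. Of the 48 consensus peaks, 23 were overlapped by a called peak in all 24 libraries and 9 in at most 4. A library held called peaks at 25 to 33 of the 48 (median 30) in WT unstimulated, 31 to 35 (34) in AhR-KO unstimulated, 35 to 39 (37) in WT LPS and 37 to 43 (38) in AhR-KO LPS. The library totals given above differ between the groups in part in the same order, and their part in these numbers was not tested.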

How the data were processed

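ATAC-seq libraries of 24 BMDM cultures, 6 per group and, per the study's methods, from 6 animals per group, were grouped by the labels for genotype and treatment. The deposited counts were made by the authors with the nf-core atacseq pipeline on mm10: reads over 184158 consensus peaks were counted per library by featureCounts 2.0.1, per the file headers with a minimum overlap fraction of 0.2 and with reads assigned to every peak they overlapped. The deposited peak lists, called per library with MACS2, give −log10 q-values, with lowest values of 1.00 to 1.03. bcl2fastq 2.20.0 is named in the submitters' processing notes. Treatment of reads mapping to several places is not given in the sources used here. Starts are printed as in the count table, 1 base before the first base of the peak.

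Counts were filtered with edgeR's filterByExpr (174193 peaks kept, all 48 members among them), scaled by TMM and tested with edgeR 4.0.16 (quasi-likelihood, R 4.3.3) over all 24 libraries, with Benjamini-Hochberg adjustment over all tested peaks; log2 fold changes are given ± SE. DESeq2 1.42.0 was an alternative, with other scalings, filters, fold thresholds, windows, replicate terms and the removal of each library. Tables used Python 3.11.15 and pandas 2.3.3. On simulated counts for the unstimulated genotype comparison (166516 peaks), 24 of 67 peaks changed 1.5-fold, 55 of 67 changed 2-fold and 65 of 66 changed 4-fold were called. Only these peaks were changed, with the same spread for every peak, whereas 22.6% of the tested peaks were called in the data. A 1.5-fold change also sits at the fold threshold itself. These rates therefore need not hold for the data. Of 60 pairs of libraries of a group, none differed by so little as sampling noise. P-values measure the spread between these cultures.

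Members and gene lists were chosen with earlier results of these data known. Named peaks were each member's start-site peak, its most accessible other peak and, per comparison, up to 5 DARs in each direction by p. A further 8 peaks at Tapbp, Psmb9, H2-D1, B2m and Nlrc5 were added after their values were seen. Of other pathway genes, DARs for genotype or interaction were named, up to 8.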

Additional observations from a re-analysis of the deposited data

Results flagged for a closer look

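In 128 groups of 6 values (32 named peaks in 4 groups), the highest or lowest library was set apart from the rest by Dixon's criterion 6 times, and chance alone gives about 1 in 20. AhR-KO LPS replicate 5 was high at the downstream H2-D1 peak from 35268318 (1.55 CPM), where the genotype call was lost without it, and at the B2m start (59.1 CPM). AhR-KO unstimulated replicate 3 was set apart at the B2m downstream peak from 122153797 (6.63 CPM), and AhR-KO unstimulated replicate 5 at the Nlrc5 intronic peak from 94447367 (3.88 CPM). AhR-KO LPS replicate 6 stood out at the Nlrc5 exonic peak from 94457941 (13.2 CPM). The least deeply sequenced library, WT unstimulated replicate 5, was low at the Psmb10 start (17.9 CPM).

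The genotype effect at the Tapbp start differed between unstimulated and LPS-stimulated BMDMs by the interaction test, at -0.60 on the log2 scale.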

How the results depend on the processing

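No call at a named peak changed sign. Requiring 2-fold left 1, 1, 9 and 10 DARs for genotype without LPS, genotype with LPS, LPS in WT and LPS in AhR-KO, and 0 for the interaction. Over all 174193 tested peaks it left 17393, 19841, 50295, 52749 and 8862 in the same order. With no fold threshold there were 29, 21, 35, 27 and 6 among the members, and 69829, 77786, 111260, 115307 and 26713 over all tested peaks. With windows of 25 kb in place of 10 kb there were 21, 18, 32, 32 and 6. The wider windows take in further peaks, and the number tested is not given here. The counts for 25 kb therefore cannot be read as shares or set against those of the other settings. Unstimulated genotype DARs numbered 14 with RLE size factors and 14 with DESeq2. Interaction DARs numbered 2 with RLE, 2 with upper-quartile factors, 2 with DESeq2 and 3 with a minimum of 1 CPM in 6 libraries. Over all tested peaks the first 3 settings called 10.5%, 10.5% and 10.4%, and the last 16613 of 140051. Leaving out single libraries gave 8 to 12, 4 to 8, 16 to 20, 15 to 17 and 0 to 2 DARs, and 40 of the 51 calls were kept in every such fit.

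Replicate numbers were not taken as pairs, since not every pair of same-numbered unstimulated and LPS libraries correlated over 0.1: 5 of 6 did in WT (0.037 to 0.29), where 4 of 6 correlated best with their own number, and 2 of 6 in AhR-KO (0.00375 to 0.171), where 3 of 6 did. The WT values hint at shared numbers without settling it. With the number as a block over all libraries the counts were 9, 6, 19, 16 and 1 (the interaction call moved from the Tapbp start to the H2-D1 peak from 35254671), and within genotype 18 and 16 for LPS and 2 for the interaction.

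Called peaks per library averaged 25.3, 27.5, 31.8 and 31.8 (WT and AhR-KO unstimulated, WT and AhR-KO LPS) at a −log10 q of at least 5, and 18.7, 21.3, 32 and 31.3 where at least 0.5 of the consensus peak was covered. Depth limits peaks near 1 CPM, and intervals between replicates do not cover shared culture conditions.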
